A study of Mus musculus with 6 samples.

Results

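Zfp951 and Zfp937 are zinc finger genes of the mouse. They are the only 2 genes with a Zfp symbol among the 35 mRNA probes that the study listed as different in the hippocampus of db/db mice after DMDD, and the list gives each of them by 1 of the 90752 probes of the array. Both were chosen by their place on that list, which was selected on the measured difference between these arrays. Their contrast between treated and untreated mice is therefore described here without a test, and the differences below chose the genes and support nothing about them.

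The mice were male db/db animals of 14 weeks. Their leptin receptor is mutated, which makes them a model of obesity and type 2 diabetes, and their strain background is not given in the sources used here. The db/db-vehicle mice were given 1% Tween 80 by mouth and the db/db-DMDD mice DMDD at 50 mg/kg per day, both for 28 days. DMDD is a cyclohexanedione purified from the roots of Averrhoa carambola. Total hippocampal RNA of 3 mice per group was labelled with Cy3 and hybridized with 1 array per mouse. All 6 mice were db/db, and no lean mice were among the arrays.

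Zinc finger proteins of the classical kind bind DNA through a row of small folds, each built around a zinc ion that cysteine and histidine residues hold. In mice they form a very large family of DNA-binding proteins. Many carry a KRAB domain, which recruits the corepressor Trim28 and the histone methyltransferase Setdb1, and are known for silencing transposable elements. Their genes often lie in clusters of recent duplicates, so that members of a cluster can be much alike in sequence. The files used here show no protein domain of Zfp951 or Zfp937, and no function of either gene in the hippocampus is taken as known.

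The identity of each measurement rests on the oligonucleotide on the array, and both probes are shown for that reason, 5′ to 3′, with the stop codons of the forward reading frames in capitals.
Zfp951: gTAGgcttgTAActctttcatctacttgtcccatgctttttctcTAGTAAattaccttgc
Zfp937: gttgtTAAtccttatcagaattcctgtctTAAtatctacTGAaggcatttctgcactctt
Each probe is 60 bases long. The Zfp951 probe holds a stop codon in all 3 forward frames, as do 26.6% of the probes of the array, so its 60 bases cannot all be read as codons on this strand. The Zfp937 probe holds stop codons in 2 of the 3 frames. The G and C content was 38.3% for Zfp951 and 35.0% for Zfp937, against a median of 41.7% over all probes. Of the probes, 0.175% had less than the Zfp937 probe and 34.95% less than the Zfp951 probe. Many probes thus had the content of the Zfp937 probe or little more. Neither shared a run of more than 15 bases with any other probe on either strand, so no other probe overlaps either of them by more than that. Whether further probes of the array lie elsewhere in the same transcripts is not known here. The probes were not matched to transcripts, since of the genome only windows around start sites were used, and hybridization of RNA from related zinc finger genes was not examined.

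In the RefSeq annotation of GRCm38.p6, Zfp937 lies on chromosome 2 in a neighbourhood of zinc finger genes. Of the 10 nearest protein-coding genes, 5 on either side, 3 have a Zfp symbol, namely Zfp120, Zfp442 and Zfp345. RefSeq gives ZIPO-I as a synonym of Zfp937 and ZIPO-II as one of Zfp442. Zfp951 lies on chromosome 5, where 1 of the 10 nearest protein-coding genes, Zfp33b, has a Zfp symbol, and 4 are Gbp genes for guanylate-binding proteins. The probes of these neighbours could not be named, so their levels were not analysed here.

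The group labels were examined before any difference was drawn from them. With the groups as labelled, 0 of the 155 probes on the study's list had all arrays of one group beyond all arrays of the other. Once db/db-DMDD 1 and db/db-vehicle 3 traded labels, all 155 did. Of all tested probes, 7.07% lay apart in either direction as labelled, and 9.32% with these labels exchanged. The list thus follows a grouping in which these 2 arrays change places, and whether the labels or that grouping follow the mice could not be settled from the arrays. Each difference is given as labelled, without both arrays, and with their labels exchanged. The 3 db/db-vehicle arrays and db/db-DMDD 1 were on 1 slide and db/db-DMDD 2 and 3 on another, so slide and treatment overlapped in part. Between 65405 and 71323 probes per array were well above background, a mark that Feature Extraction sets when a spot clearly exceeds its local background, and any 2 arrays correlated at 0.989 to 0.996 over the 67732 probes tested. The levels of hippocampal marker genes were not analysed here, since no symbol is given for their probes.

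Both probes gave a detected signal in every mouse. All 12 spots of the Zfp951 probe and all 12 of the Zfp937 probe, 2 on each array, were well above background, and none was marked as an outlier or as saturated. The processed signal, the linear intensity of a spot after background subtraction, ranged from 76.3 to 144 for Zfp951 and from 44.1 to 73.3 for Zfp937. The raw signal was 6.31 to 10.5 times the local background at the Zfp951 spots and 3.81 to 5.92 times at the Zfp937 spots. The levels of the probes are not set against each other, because different probes bind with different strength. In these bulk samples, fewer cells of a type and less RNA per cell cannot be told apart.

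For Zfp951, the processed signals of both spots were 76.7 and 76.3 on db/db-vehicle 1, 93.0 and 81.3 on db/db-vehicle 2, and 144 and 139 on db/db-vehicle 3. They were 98.1 and 96.0 on db/db-DMDD 1, 131 and 119 on db/db-DMDD 2, and 124 and 121 on db/db-DMDD 3. Before normalization between arrays, the highest array thus carried a vehicle label, and the DMDD array on the same slide stood with the 2 lower vehicle arrays. After quantile normalization db/db-DMDD 2 was the highest, at a log2 signal of 7.12 against 7.05 on db/db-vehicle 3. For Zfp937, the spots gave 49.7 and 45.6 on db/db-vehicle 1, 57.2 and 52.3 on db/db-vehicle 2, and 65.1 and 62.2 on db/db-vehicle 3. They gave 44.1 and 47.9 on db/db-DMDD 1, 73.3 and 71.5 on db/db-DMDD 2, and 70.4 and 63.8 on db/db-DMDD 3. Here the DMDD arrays held both extremes, since db/db-DMDD 1 was the dimmest array and db/db-DMDD 2 the brightest.

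**Figure D1:**
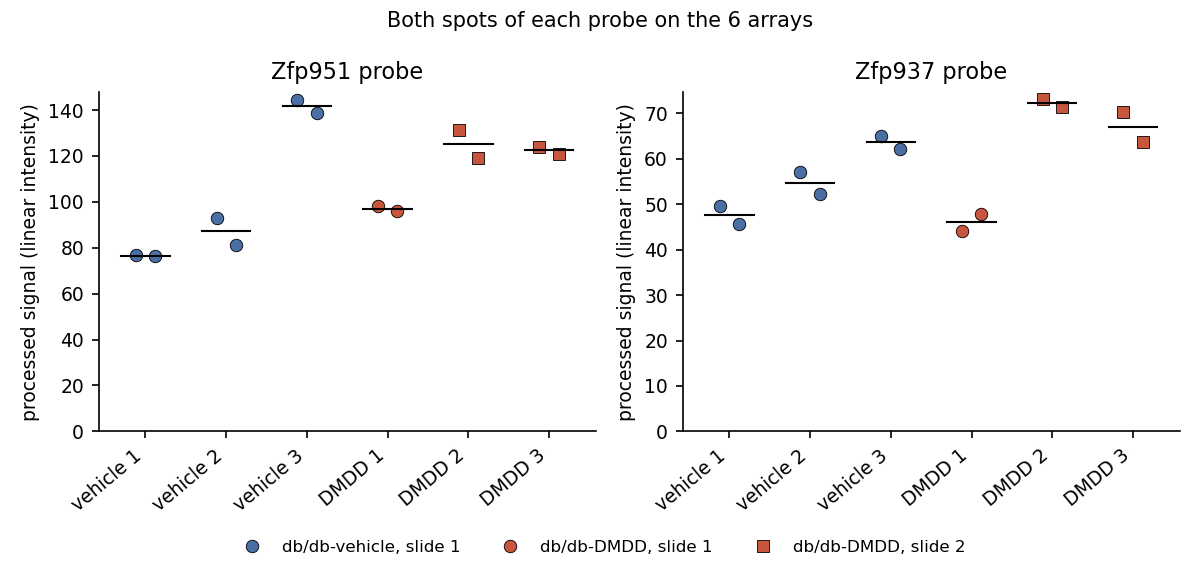
Processed signal (linear intensity, before normalization) of both spots of the Zfp951 probe (left) and the Zfp937 probe (right) on each of the 6 arrays, with a black line at the mean of the 2 spots. Colours give the labelled group and squares the second slide. All Zfp951 spots of db/db-DMDD 2 and 3 and of db/db-vehicle 3 are at 119 or more, and those of the other 3 arrays at 98.1 or less.

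After quantile normalization between arrays, the log2 signal of Zfp951 was 6.38, 6.33 and 7.05 on db/db-vehicle 1, 2 and 3, and 6.52, 7.12 and 6.93 on db/db-DMDD 1, 2 and 3. The arrays fell into 3 low values, from 6.33 to 6.52, and 3 high values, from 6.93 to 7.12, with a step of 0.41 between them. The 2 spots of 1 array differed by a median of 0.047 and at most 0.19 on this scale, so that step was larger than any gap between spots. The steps within the low and within the high arrays were all smaller than 0.19, and the order inside each set is not resolved by the spots.
For Zfp937 the log2 signal was 5.68, 5.66 and 5.87 on db/db-vehicle 1, 2 and 3, and 5.43, 6.35 and 6.07 on db/db-DMDD 1, 2 and 3. Its values formed a gradient. Between neighbours in the order, the step was 0.23 from db/db-DMDD 1 to db/db-vehicle 2, 0.015 from there to db/db-vehicle 1, and 0.19 on to db/db-vehicle 3. The last steps, to db/db-DMDD 3 and db/db-DMDD 2, were 0.21 and 0.28. All but the smallest exceeded the largest gap between spots of 1 array, which was 0.14. By that measure db/db-vehicle 1 and 2 alone were not told apart. Gaps between spots hold no error of labelling, hybridization or slide. Whether the steps between arrays exceed that error is not known here. Over the 6 arrays the standard deviation was 0.35 for Zfp951 and 0.33 for Zfp937, and 87.6% and 85.6% of the tested probes varied less.

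With the groups as labelled, the log2 signal of Zfp951 was 6.59 ± 0.40 (SD, n = 3) in the db/db-vehicle arrays and 6.86 ± 0.31 (SD, n = 3) in the db/db-DMDD arrays. The difference of 0.27, or 1.20-fold, was smaller than the standard deviation of either group, and the groups overlapped. For Zfp937 the values were 5.74 ± 0.11 (SD, n = 3) and 5.95 ± 0.47 (SD, n = 3), a difference of 0.22, or 1.16-fold, which was smaller than the standard deviation of the db/db-DMDD arrays. These groups overlapped as well, with db/db-DMDD 1 below every vehicle array. Neither gene had every db/db-DMDD array above every db/db-vehicle array, as 3.24% of the tested probes did, and neither was higher by 0.5 or more on the log2 scale, the threshold of the study, as 1.9% were.

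Without db/db-DMDD 1 and db/db-vehicle 3, the 2 remaining db/db-DMDD arrays were higher than the 2 remaining db/db-vehicle arrays for both genes. The difference was 0.67 for Zfp951 and 0.54 for Zfp937 on the log2 scale. In this set all vehicle arrays were on 1 slide and all DMDD arrays on the other, so slide and treatment cannot be told apart.

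With the labels of these 2 arrays exchanged, the log2 signal of Zfp951 was 6.41 ± 0.096 (SD, n = 3) in the vehicle group and 7.03 ± 0.095 (SD, n = 3) in the DMDD group, a difference of 0.62, or 1.54-fold, that was over the standard deviation of either group. For Zfp937 it was 5.59 ± 0.14 (SD, n = 3) and 6.10 ± 0.24 (SD, n = 3), a difference of 0.51, or 1.42-fold. Both genes then had every DMDD array above every vehicle array, which 4.89% of the tested probes had, and both were higher by at least 0.5, which 1.61% were. Both conditions together held for 0.644% of the tested probes, against 0.31% as labelled. Since all listed probes follow this grouping, these counts describe how the genes were chosen. At the level of single spots, all 6 DMDD spots were above all vehicle spots for both genes in this grouping. As labelled, 1 of 6 was for Zfp951 and 4 of 6 for Zfp937. The spots are repeats on the same 3 arrays and add no mice, and the share of all probes with such spots was not counted.

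**Figure D2:**
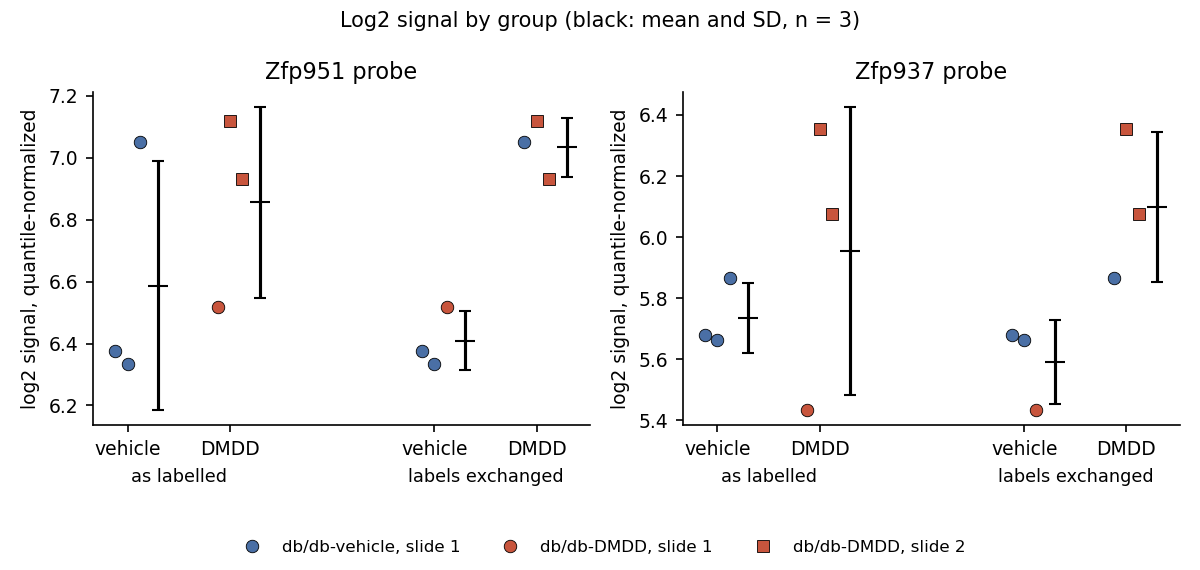
Quantile-normalized log2 signal of the Zfp951 probe (left) and the Zfp937 probe (right) by group, as labelled and after db/db-DMDD 1 and db/db-vehicle 3 traded labels. Colours and squares give the labelled group and the second slide, and black bars the mean ± SD of 3 arrays. Exchanging these 2 arrays raises the Zfp951 difference from 0.27 to 0.62 and the Zfp937 difference from 0.22 to 0.51.

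Each difference was also taken within a slide. Within the slide that holds 4 arrays, db/db-DMDD 1 minus the mean of the 3 db/db-vehicle arrays was -0.069 for Zfp951 and -0.30 for Zfp937 on the log2 scale, so the labelled direction turned for both. In the exchanged grouping, db/db-vehicle 3 exceeded the other 3 arrays of its slide by 0.64 for Zfp951 and by 0.28 for Zfp937. Over both slides these differences were 0.62 and 0.51, and the highest Zfp937 values were those of the arrays on the second slide. Each of these values sets a single array against 3, and slide, treatment and the variation of a single array cannot be told apart in them.

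Among the 12 listed mRNA probes that were higher in the exchanged grouping, Zfp951 ranked seventh and Zfp937 eleventh by the log2 of the ratio of mean linear signals from the authors' normalized values. By that measure Zfp951 was at 0.62, Zfp937 at 0.52 and the lowest, Rgl2, at 0.50, so Zfp937 lay just inside the study's threshold of 0.5. Probes just outside that threshold carry no gene name in the files used here.

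The signals of both genes followed each other in part. Over the 6 arrays, Pearson's r between the log2 signals of Zfp951 and Zfp937 was 0.81 and Spearman's rho 0.77. Without db/db-vehicle 2 and db/db-DMDD 2, the arrays farthest from the median of Zfp951, r was 0.74, and on the 4 arrays of the first slide it was 0.61. The arrays share their processing, and both genes were listed for the same contrast, so no p is given. Of the other 67731 tested probes, 2.26% correlated with Zfp951 as closely as Zfp937 did, and 5.32% correlated with Zfp937 as closely as Zfp951 did.

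**Figure D3:**
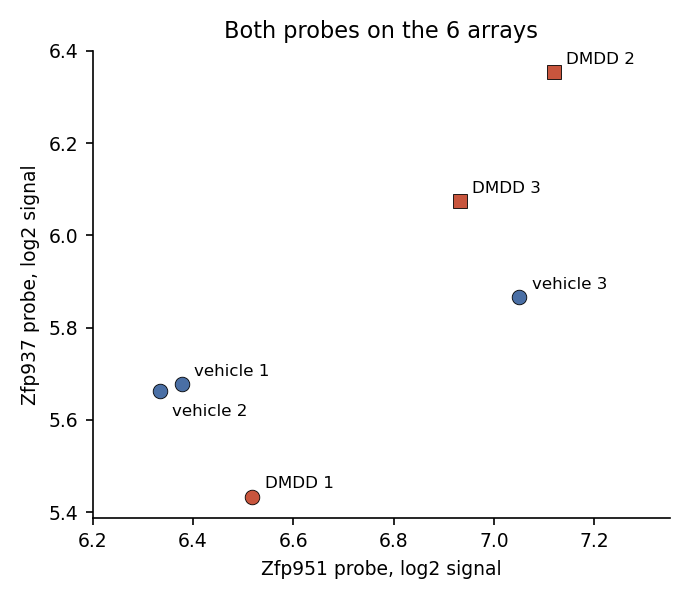
Log2 signal of the Zfp937 probe against that of the Zfp951 probe on the 6 arrays, 1 point per mouse, with squares for the second slide and colours for the labelled group. The arrays db/db-vehicle 1 and 2 lie together at low values of both, db/db-DMDD 2 and 3 at high values of both, and db/db-vehicle 3 is high for Zfp951 (7.05) and intermediate for Zfp937 (5.87).

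Some listed genes had closely similar patterns, by Pearson's r over the 6 arrays. Among the 148 other tested probes with a symbol on the study's list, the most similar to Zfp951 were the lncRNAs NONMMUG001653, NONMMUG019020 and NONMMUG002822, at 0.98, 0.98 and 0.97. Those most similar to Zfp937 were the lncRNAs NONMMUG018363 and NONMMUG021806, at 0.97 and 0.96, and the mRNA of Klhl33, a kelch-like protein, at 0.96. Among the mRNA probes alone, Zfp951 was followed by Rgl2, an exchange factor for Ral GTPases, at 0.93, Ldlrad2, a protein with a low density lipoprotein receptor domain, at 0.89, and Pcdh12, a protocadherin of the endothelium, at 0.89. For Zfp937 the mRNAs after Klhl33 were Pcdh12 at 0.95 and Cfap44, a protein of the axoneme of cilia and flagella, at 0.94. Cfap44 was at 4.65, 4.97 and 5.08 on db/db-vehicle 1, 2 and 3 and at 4.61, 5.49 and 5.39 on db/db-DMDD 1, 2 and 3, with the lowest value on db/db-DMDD 1 and the highest on db/db-DMDD 2, as for Zfp937. All these probes were listed for the same contrast. Over all tested probes, 0.154% reached an r of 0.95 with Zfp951 and 0.468% with Zfp937.

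Of 27 marker genes of brain and blood cells, the study's list pairs 2 with a probe, and both are genes of leukocytes. Retnlg, a resistin-like protein of myeloid cells, was at 7.96, 8.02 and 7.46 on db/db-vehicle 1, 2 and 3 and at 7.90, 6.84 and 6.91 on db/db-DMDD 1, 2 and 3 (log2 signal). Elane, the elastase of neutrophils, was at 4.85, 4.43 and 4.12 and at 4.72, 4.11 and 3.88 on the same arrays. Both were lowest on db/db-vehicle 3, db/db-DMDD 2 and db/db-DMDD 3, the arrays on which Zfp951 and Zfp937 were highest. Their r with Zfp951 was -0.90 for Retnlg and -0.82 for Elane, and with Zfp937 -0.92 and -0.77. Of the tested probes, 0.599% had an r with Zfp951 as low as that of Retnlg and 1.74% as low as that of Elane, and with Zfp937 these shares were 0.917% and 6.91%. Both leukocyte genes are on the same list as lower in the exchanged grouping and both zinc finger genes as higher, so that opposite patterns came with the selection. The part of blood cells in the zinc finger signals was not tested.

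**Figure D4:**
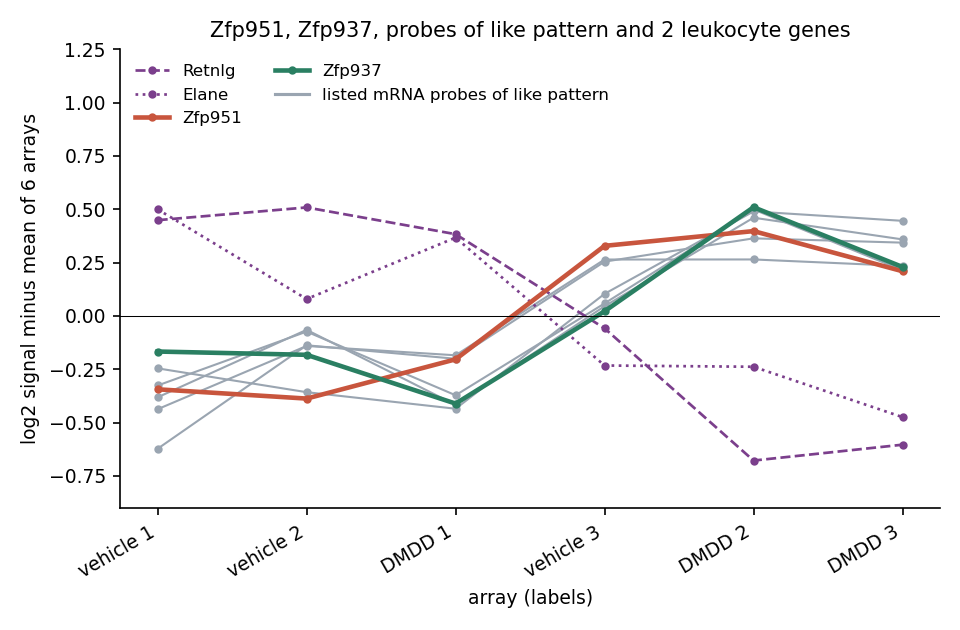
Log2 signal minus the mean of the 6 arrays for Zfp951 and Zfp937 (thick), the 5 listed mRNA probes named as most similar to either (grey), and the leukocyte genes Retnlg and Elane (dashed and dotted). Arrays keep their labels and are ordered with db/db-vehicle 1, db/db-vehicle 2 and db/db-DMDD 1 on the left; lines join the values of a probe and stand for no course. Both zinc finger genes are above their mean on the 3 arrays at the right and the leukocyte genes below theirs.

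The start regions of both genes are given as a description. Both genes were listed for the same contrast, so similar signals came with the selection. Whether the genes share any regulation was not tested. The RefSeq table for GRCm38.p6 gives windows of 300 bases, from 250 before to 50 after a start site. A pair of short sequences occurs in both windows and is in capitals, CCAATCA, a form of the CCAAT box, and TTCCGG, a core of sites for ETS factors, searched on both strands.
Zfp951, chr5:104860019-104860318, minus strand: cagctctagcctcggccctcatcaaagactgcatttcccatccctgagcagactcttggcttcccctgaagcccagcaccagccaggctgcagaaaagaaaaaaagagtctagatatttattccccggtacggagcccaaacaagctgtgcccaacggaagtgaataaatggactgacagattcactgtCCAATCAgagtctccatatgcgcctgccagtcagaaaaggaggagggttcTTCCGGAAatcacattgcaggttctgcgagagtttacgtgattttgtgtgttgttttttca
Zfp937, chr2:150217849-150218148, plus strand: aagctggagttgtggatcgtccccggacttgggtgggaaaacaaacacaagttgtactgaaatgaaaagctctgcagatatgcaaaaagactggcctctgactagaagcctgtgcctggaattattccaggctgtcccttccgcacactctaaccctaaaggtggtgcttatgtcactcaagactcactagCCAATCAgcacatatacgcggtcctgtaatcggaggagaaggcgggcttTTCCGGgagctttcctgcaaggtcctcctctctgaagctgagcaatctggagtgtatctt
Counted from the start site, CCAATCA begins at -61 in the Zfp951 window and at -59 in the Zfp937 window, and TTCCGG at -11 and -10. In Zfp951 a second copy of TTCCGG on the other strand overlaps the first, and all 8 bases are in capitals. RefSeq gives Zfp951 another start, whose window overlaps the one shown, and from that start CCAATCA begins at -102 and TTCCGG at -52, farther than in Zfp937. The window printed is the one whose positions lie nearer to those of Zfp937. Neither window holds TATAAA, which 13.6% of the 32851 windows do, or GGGCGG, which 35.7% do, on either strand. CCAATCA occurs in 7.82% and TTCCGG in 14.9% of all windows, and both occur in 1.46%. Of the 406 windows of genes with a Zfp symbol and number, 8.87% hold both. The motifs were picked after the sequences were seen, a match is not a site that a factor was shown to bind, and each window of both genes holds 8 CpG, against a median of 7 over all windows and 14 over those of Zfp genes.

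Under other settings the differences moved as the plot of settings shows. Other scalings, the use of a single spot and the ratio of mean linear signals left the labelled difference between 0.24 and 0.28 for Zfp951 and between 0.17 and 0.26 for Zfp937. Correction with normexp and an offset of 50, which brings ratios of low signals nearer to 1, gave 0.16 and 0.12 as labelled and 0.38 and 0.26 with the labels exchanged, so that neither gene reached 0.5 in either grouping. With the labels exchanged, Zfp937 also stayed below 0.5 with scaling to the 75th percentile, at 0.48, and with the second spot alone, at 0.49. In that grouping it was 0.43 without db/db-DMDD 1, 0.38 without db/db-DMDD 2 and 0.28 with slide as a fixed block. Without any other single array it was above 0.5. As labelled, the Zfp951 difference was 0.50 without db/db-vehicle 3, 0.44 without db/db-DMDD 1, 0.16 without db/db-vehicle 1, and 0.14 without db/db-vehicle 2 or without db/db-DMDD 2. Without db/db-DMDD 2 that of Zfp937 was 0.018, and without db/db-DMDD 1 it was 0.48.

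**Figure D5:**
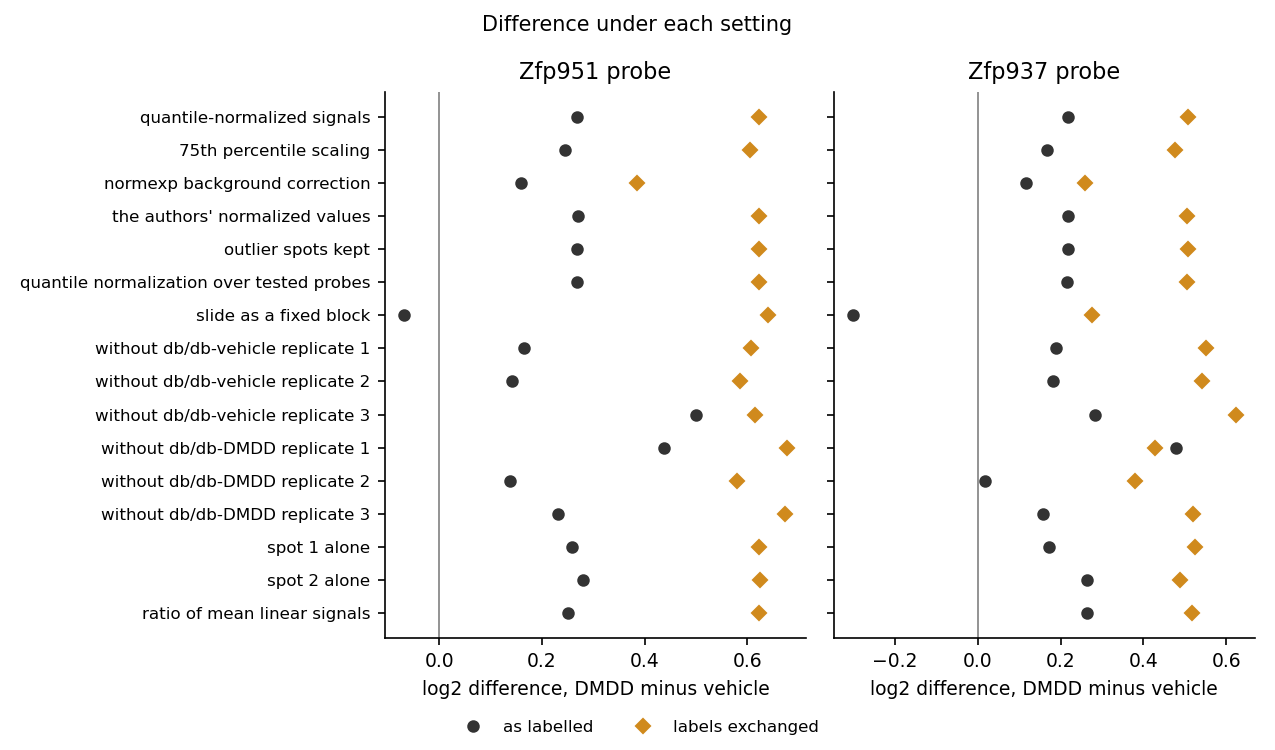
Log2 difference, DMDD minus vehicle, of the Zfp951 probe (left) and the Zfp937 probe (right) under each setting, with circles for the groups as labelled and diamonds where db/db-DMDD 1 and db/db-vehicle 3 traded labels; the grey line marks 0. As labelled, slide as a fixed block is the only setting plotted below 0, at -0.069 and -0.30, and no exchanged value is below 0.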

How the data were processed

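The authors extracted 1-colour Agilent arrays with Feature Extraction (version 10.7 in the submitters' processing notes, while the paper's methods name a later version). They deposited the scanner output, whose linear intensity per spot is background-subtracted within an array and not normalized between arrays. They also deposited a table of log2 values, normalized by the quantile method, with the averaging of spots not given in the sources used here. Each column of it correlated at 0.999 or more with its own array, and all medians lay at 5.74.

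Symbols came from the study's list, whose fold changes and p-values were not used. The genes and lists were chosen with earlier results of these data known. Log2 processed signals of spots that are not controls, without outlier spots, were quantile-normalized with limma 3.58.1 in R 4.3.3 and averaged per probe. A probe counted as tested (67732 in all) if 3 or more of the 6 arrays had it well above background and all had a value; how many had groups that do not overlap, or differed by 0.5, was counted, with no p-value. Summaries were computed with pandas 2.3.3 and numpy 2.4.6 under Python 3.11.15 and tested on simulated data. The number of arrays limits the precision. Zfp951 and Zfp937 were always named, with the 3 listed symbols of highest r for each; the 3 most similar mRNAs were added after the values were seen. Lists of zinc finger genes, KRAB corepressors and markers, and the limma fits planned for them, were not run, because no sequence used here names the other probes; 2 markers are on the study's list. The alternatives were other scalings, background correction, spots, slide or replicate as a block, and arrays left out.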

Additional observations from a re-analysis of the deposited data

How the results depend on the processing

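As labelled, the Zfp951 difference (0.27) stayed above 0 under 16 of 17 alternatives and the Zfp937 difference (0.22) under 16 of 17. With a term for slide, db/db-DMDD 1 is the sole treated array to compare within a slide, and both differences turned, to -0.069 and -0.30. Leaving out db/db-DMDD 1 and db/db-vehicle 3, chosen after the data were seen, gave 0.67 for Zfp951 and 0.54 for Zfp937. With single arrays left out, Zfp951 ranged from 0.14 to 0.50 and Zfp937 from 0.018 to 0.48. The replicate block left both differences at 0.27 and 0.22, since the numbers are balanced. The deviations of same-numbered arrays from their labelled group means correlated at -0.036, -0.25 and -0.19. Each mean was of 3 arrays, with the labels of 2 arrays in doubt and the DMDD arrays on both slides. These correlations therefore cannot decide whether the numbers mark pairs. With the labels exchanged, alternatives chosen after the data were seen kept Zfp951 between 0.38 and 0.68 and Zfp937 between 0.26 and 0.62, with none of 15 turned for either gene. The counts planned for other zinc finger genes and corepressors were not run.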
